A study of Mus musculus with 7 samples.

Results

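Serpins, cathepsins and the smaller protease families around them were followed in 2 fat depots of the mouse. The members were the genes whose symbol in the array's annotation starts with Serpin, Prss, Tmprss, Klk, Gzm, Spink, Mcpt, Cma or Stfa, with Cst and a further letter or digit, or is Cts and 1 letter. Probes with several symbols and pseudogene symbols ending in -ps were left out, and a gene with several probes was read from the probe with the highest mean. This gave 63 of the 9294 genes tested. They are 24 serpins, 13 kallikreins, 9 cathepsins, 5 cystatins and stefins, 4 Prss genes, 2 mast cell proteases, 2 Kazal inhibitors, 1 Tmprss gene, 1 granzyme and 2 genes, Cstf1 and Cstf2t, that match a prefix only. These last genes encode subunits of the mRNA cleavage machinery and are neither proteases nor inhibitors. No member was dropped here for low signal. Genes of these families without a probe of their own in the deposited table could not be read, so the counts are not whole families.

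Total RNA of paracardial fat, which lies beside the heart, was hybridised to 4 Affymetrix arrays, and RNA of intra-abdominal fat to 3. All 7 samples came from wild-type C57 males, and no transgene, deletion, treatment or age is named. The labels number biological replicates within each depot without saying whether each is from its own animal, so a p-value here reflects the scatter among the samples, which may be technical. Values are on the deposited log2 scale, and differences are paracardial minus intra-abdominal.

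Serpins fold into a shared structure, and in the inhibitory ones an exposed loop is cut by a target protease and then traps it. Cathepsins are proteases, most of them cysteine enzymes of the lysosome, and cystatins and stefins block the cysteine type. Granzymes, kallikreins, mast cell chymases and most Prss and Tmprss proteins are serine proteases, and Kazal proteins of the Spink group inhibit trypsin-like enzymes. In fat, Serpina3n is known as a secreted, hormone-responsive inhibitor, and cathepsins B, L and S are known from macrophages and adipocytes.

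The upstream sequence of the Serpina3 genes is shown first, because Serpina3n had the largest depot difference of the 63 members while its chromosome 12 paralogs Serpina3f and Serpina3i did not pass the test. The stretches are from RefSeq, build GRCm38.p6, on the plus strand, which is the genes' own strand, and the capitals mark the longest run of bases (12) that the 4 genes shown share before their start sites.
Serpina3n: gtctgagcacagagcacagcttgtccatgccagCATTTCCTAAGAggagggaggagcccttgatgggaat
Serpina3b: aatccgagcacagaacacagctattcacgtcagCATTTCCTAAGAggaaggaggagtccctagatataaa
Serpina3f: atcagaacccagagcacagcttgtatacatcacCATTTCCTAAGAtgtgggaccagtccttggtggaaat
Serpina3i: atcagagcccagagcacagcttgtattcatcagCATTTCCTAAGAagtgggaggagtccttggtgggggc
They lie at chr12:104406617-104406686 (Serpina3n), chr12:104127904-104127973 (Serpina3b), chr12:104214446-104214515 (Serpina3f) and chr12:104263052-104263121 (Serpina3i). Compared position by position without gaps, Serpina3n shared 53 of 70 bases with Serpina3f, 54 with Serpina3i and 35 with Serpina3b. The windows were lined up on the run, so its 12 bases match by construction. The run CATTTCCTAAGA, searched on both strands, was in 9 of 32851 upstream windows of 250 bases (0.0274%). It was in 4 of the 54 members with a listed promoter, the 4 shown. Serpina3j, the other Serpina3 member, was not used to define the run and does not hold it in its window. The run was defined as what these 4 share, so all 4 hold it by construction. The match is a description of the letters and not of binding.

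The labelled tissue was checked against marker genes before the members were read. Of 12 adipocyte markers 9 were measured and 6 were lower in paracardial fat, with median values per array of 6.02 to 9.68 in paracardial and 14.4 to 16.0 in intra-abdominal fat. Adiponectin (Adipoq) was at 5.18 and 5.53 on paracardial arrays 1 and 2, below the median probe of those arrays (6.07 and 6.005). Markers of T and NK cells ran the other way, with medians of 10.2 to 12.97 in paracardial and 5.75 to 8.71 in intra-abdominal fat, and so did thymic epithelial markers (9.94 to 11.6 and 5.41 to 8.11). On paracardial array 4 and intra-abdominal array 3 the highest value was 19.93 (19.81 to 19.84 elsewhere) and the 5th percentile 3.995 and 3.9996 (4.38 to 4.44 elsewhere), and these arrays are called the array pair here. Of 8 endothelial markers 4 were measured and 2 were lower, and of 8 mesothelial markers 3 were measured and none passed. Of 8 thymocyte markers 4 were measured and 2 were higher, Dntt (7.05) and Rag2 (4.65). Among the others Ptcra differed by 1.58, while Cd1d1 went the other way (-3.29) without overlap, and neither passed. Single arrays carried genes of other organs, which are given beside the members they moved with. In bulk tissue, fewer cells of a type and less RNA per cell cannot be told apart.

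Of the 63 members 5 passed the depot comparison, at an adjusted p under 0.05 by limma with Benjamini-Hochberg adjustment over all genes. Serpina3n and Serpinh1 were lower in paracardial fat, and Gzma, Serpinb3a and Serpinb5 were higher. That is 7.94% of the members, where 9.16% of all genes were called. In the higher direction it was 4.76% of members against 6.25% of genes, and in the lower direction 3.17% against 2.91%, so these shares are near the background. Values of the depots stood fully apart, with no overlap, for 14 members (22.2%), where this held for 26.7% of all genes. The median difference was -0.02 over the members and 0.13 over all genes. Median centring moved the median of all genes to -0.02, and that of the members to -0.18.

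**Figure D1:**
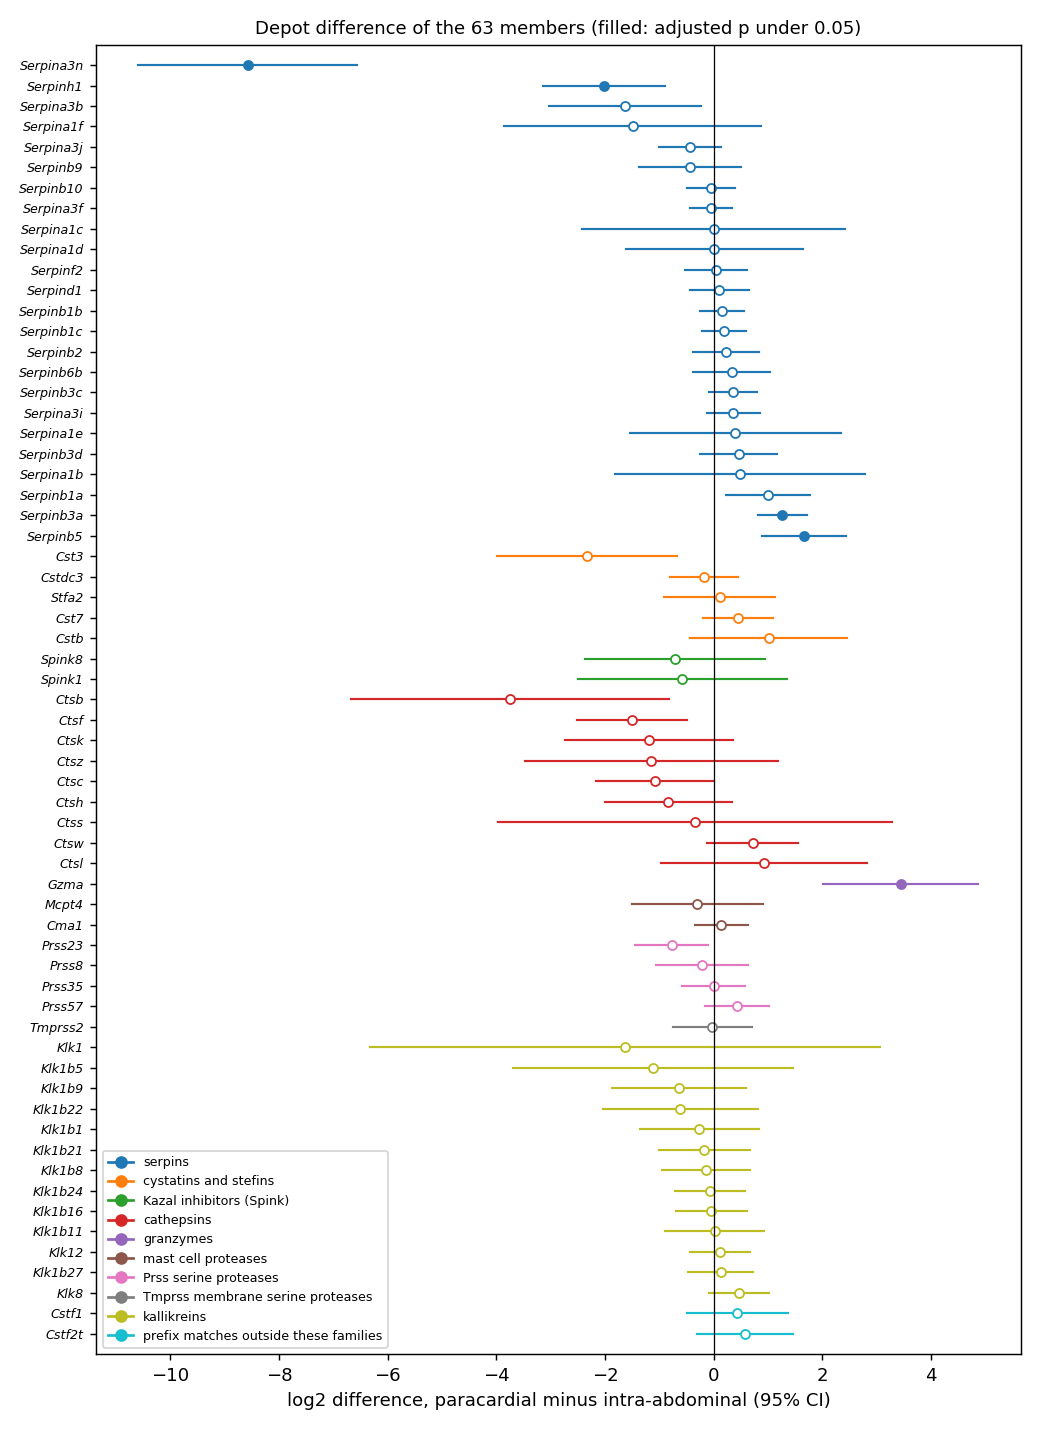
Depot difference of all 63 members on the log2 scale (horizontal axis, paracardial minus intra-abdominal, with 95% confidence intervals from limma over 7 arrays), grouped by family on the vertical axis. Filled points passed the threshold; Serpina3n stands at -8.58, far from the other members, most of which lie between -2 and 2.

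Serpina3n, an inhibitor that acts on granzyme B and neutrophil proteases, was lower in paracardial fat. In paracardial fat, arrays 1 to 4 read 7.02, 6.95, 7.99 and 9.17, while arrays 1 to 3 of intra-abdominal fat read 14.84, 16.37 and 17.88. Every intra-abdominal array was above every paracardial one, with a gap from 9.17 to 14.84. The means were 7.78 ± 1.04 (SD, n = 4) and 16.36 ± 1.52 (SD, n = 3), which gives a difference of -8.58 ± 0.84 (SE), with 95% confidence limits at -10.59 and -6.57. By limma the adjusted p was 0.0082, and the two-sided exact permutation test gave p = 0.0571. That test doubled the smaller one-sided p over the 35 splits of the arrays. In this form its smallest possible value is 0.0571, so it cannot reach 0.05. Outside the array pair (5 arrays) the difference was -8.28, and within the pair it was -8.71. It passed whichever array was left out (adjusted p 0.0066 to 0.041) but not without paracardial arrays 1 and 2 together (-7.78, adjusted p = 0.090). The adipocyte markers given above were lower on the same arrays, and their part in the result was not tested.

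The other Serpina3 genes, which stem from duplications of the same ancestor, did not pass. Serpina3b was at 4.11, 3.75, 3.82 and 4.07 on the paracardial arrays and at 4.18, 5.66 and 6.85 on the intra-abdominal ones. Its groups did not overlap, but intra-abdominal array 1 was close to the paracardial values, and the difference of -1.63 ± 0.59 had an adjusted p of 0.145 by limma. Serpina3b passed without intra-abdominal array 1 (-2.32, adjusted p = 0.029), and its difference fell to -0.98 without intra-abdominal array 3 and to -1.03 in the 5 arrays outside the array pair. Serpina3j differed by -0.44 (95% confidence interval -1.02 to 0.14), Serpina3f by -0.05 (-0.43 to 0.34) and Serpina3i by 0.36 (-0.13 to 0.85). All values of these 3 genes were between 4.17 and 5.89, and a difference as large as that of Serpina3n lies outside each interval. Probes of near-identical paralogs can share signal, so a value for 1 Serpina3 gene may hold part of another's.

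Other genes listed with the acute phase were lower in part. The list holds secreted proteins that rise in inflammation, and also genes for proteins of other kinds, such as Steap4, Il6ra, Cebpb and Cebpd. Of 17 listed genes beside Serpina3n 10 were measured, 3 were lower and none was higher, with a median difference of -1.37. The 3 were Steap4, a metalloreductase of adipocytes (-7.63 ± 1.09, adjusted p = 0.014), haptoglobin, Hp (-7.28 ± 1.30, 0.022), and the orosomucoid Orm3 (-1.61 ± 0.36, 0.041). Serum amyloid Saa1 was at 6.55 and 6.69 on paracardial arrays 1 and 2 and at 4.49 to 5.39 on the other 5, so it did not follow Serpina3n.

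Serpinh1, also called Hsp47, is a collagen chaperone of the endoplasmic reticulum and inhibits no protease. It was lower in paracardial fat, at 5.13, 5.23, 5.47 and 5.56 on the paracardial arrays and 6.20, 7.66 and 8.22 on the intra-abdominal ones. The groups did not overlap, and intra-abdominal array 1 was nearest to the paracardial arrays. The difference was -2.01 ± 0.47 (SE; 95% confidence interval -3.14 to -0.89, limma adjusted p = 0.047). With 1 array left out the call held once in 7 times, without intra-abdominal array 1 (adjusted p = 0.011), and otherwise the adjusted p was 0.083 to 0.170. It was also lost in the 5 arrays outside the array pair (-1.66, adjusted p = 0.112), and the difference within the pair was -2.65. Of 11 fibroblast and progenitor markers 3 were measured and 1 was lower, with medians of 6.05 to 7.55 in paracardial and 8.42 to 12.02 in intra-abdominal fat, and their part was not tested.

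Among the clade B serpins, which stay inside cells, Serpinb3a and Serpinb5 were higher in paracardial fat. Serpinb3a, a relative of human squamous cell carcinoma antigen, was at 6.58, 6.71, 6.40 and 6.21 on the paracardial arrays and 5.19, 5.14 and 5.30 on the intra-abdominal ones. Both groups were tight, with SDs of 0.21 (n = 4) and 0.08 (n = 3), and did not overlap. The difference was 1.26 ± 0.19 (95% confidence interval 0.81 to 1.71, limma adjusted p = 0.015). It passed in 5 of 7 fits that left out an array, with adjusted p = 0.057 without paracardial array 1 and 0.073 without intra-abdominal array 2. In the 5 arrays outside the array pair it passed (1.40, adjusted p = 0.017), and within the pair the difference was 0.91.

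Serpinb5, known as maspin and made by epithelial cells, was at 6.55, 6.42, 5.75 and 6.55 on the paracardial arrays and 5.03, 4.86 and 4.08 on the intra-abdominal ones. Paracardial array 3 was the lowest of its depot and still above all intra-abdominal arrays. The difference was 1.66 ± 0.32 (95% confidence interval 0.88 to 2.43, limma adjusted p = 0.028). It passed in 3 of 7 fits that left out an array, with adjusted p up to 0.090 (without intra-abdominal array 2), and was at 0.084 without paracardial array 1, 0.079 without paracardial array 2 and 0.061 without paracardial array 4. It was also lost in the 5 arrays outside the array pair (1.29, adjusted p = 0.069), and the difference within the pair was 2.47. Some epithelial markers were higher on the same arrays: of 10 thymic epithelial markers 8 were measured and 5 were higher (Krt18, Krt8, Krt5, Ly75 and Psmb11), while Dll4 differed by -0.90 (adjusted p = 0.311). Likewise, of 10 skin and squamous markers 5 were measured and 1 was higher (Dsp, 4.36 ± 0.71, adjusted p = 0.018), while Sbsn differed by -0.89 without overlap (0.108). Their part in the 2 serpin calls was not tested.

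**Figure D2:**
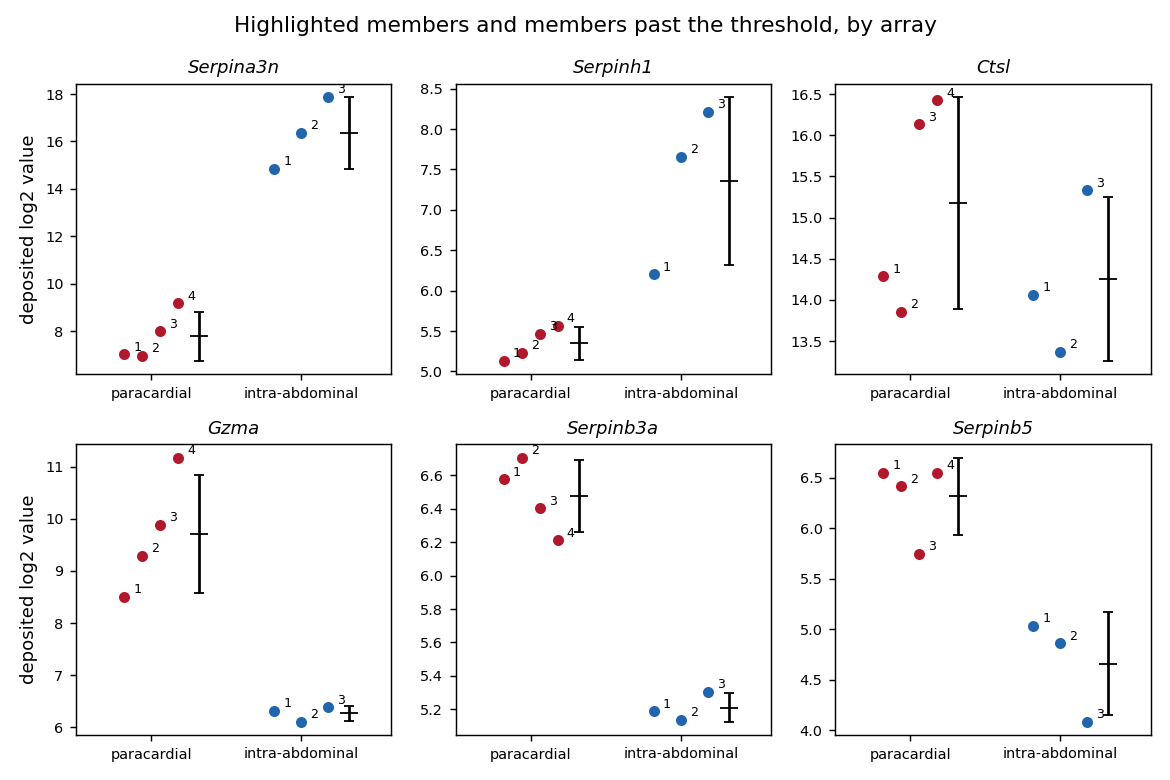
Deposited log2 value (vertical axis, scaled per panel) of Serpina3n, Serpinh1, Ctsl, Gzma, Serpinb3a and Serpinb5 on each array, numbered by replicate, with mean and SD beside each depot (n = 4 and n = 3). The depots do not overlap for any of these genes but Ctsl, whose paracardial arrays (13.86 to 16.42) enclose most of the intra-abdominal ones (13.37 to 15.33).

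None of the other 9 clade B serpins passed. Serpinb1a, which inhibits neutrophil elastase, came nearest, at 7.502, 8.06, 8.03 and 8.27 against 6.95, 6.43 and 7.54, with a difference of 0.99 ± 0.32 (adjusted p = 0.114). Intra-abdominal array 3 overlapped paracardial array 1 there. With the array pair as a block the adjusted p of Serpinb1a was 0.037. Serpinb3c and Serpinb3d, paralogs of Serpinb3a, differed by 0.36 and 0.46, with adjusted p of 0.303 and 0.414. Serpinb9, an inhibitor of granzyme B, differed by -0.43 (-1.37 to 0.50) and Serpinb6b by 0.33 (-0.38 to 1.04). Serpinb1b, Serpinb1c, Serpinb2, which inhibits plasminogen activators, and Serpinb10 differed by -0.05 to 0.22. In all, 9 of the 11 clade B members had a positive difference, as did 5628 of all 9294 genes. The count of members was 8 after median centring.

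The plasma inhibitors Serpind1 (heparin cofactor II) and Serpinf2 (antiplasmin) stayed between 4.27 and 5.30 on all arrays, with differences of 0.10 and 0.04 that turned negative after median centring. Of 28 listed fibrinolysis and coagulation genes 13 were measured, these 2 included, and 2 were lower in paracardial fat. They were the plasminogen activator urokinase, Plau (-2.65 ± 0.56, adjusted p = 0.035), and thrombomodulin, Thbd (-2.68 ± 0.62, 0.046).

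The alpha-1-antitrypsin genes Serpina1b to Serpina1e, which the liver makes in bulk, stood out on a single array, a pattern picked out after the values were seen. Their upstream sequence is printed for a long run of bases that the 4 genes share there. The stretches are from RefSeq, build GRCm38.p6, read along the genes on the minus strand, and capitals mark the longest run (55 bases) that all 4 share.
Serpina1b: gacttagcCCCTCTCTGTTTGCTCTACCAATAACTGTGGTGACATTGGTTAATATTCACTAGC
Serpina1c: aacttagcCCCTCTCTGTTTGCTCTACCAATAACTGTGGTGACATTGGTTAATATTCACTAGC
Serpina1d: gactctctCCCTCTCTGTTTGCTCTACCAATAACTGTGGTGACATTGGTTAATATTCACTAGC
Serpina1e: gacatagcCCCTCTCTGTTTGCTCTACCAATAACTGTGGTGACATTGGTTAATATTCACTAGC
They lie at chr12:103738200-103738262 (Serpina1b), chr12:103904962-103905024 (Serpina1c), chr12:103773634-103773696 (Serpina1d) and chr12:103956960-103957022 (Serpina1e). Serpina1b shared 62 of 63 bases with Serpina1c, 62 with Serpina1e and 59 with Serpina1d. These counts include the 55 bases of the run, which match by choice of the window. The 55-base run, searched on both strands, was in 5 of 32851 upstream windows (0.0152%), with 4 of the 54 members with a listed promoter among them. These are the 4 genes that defined the run, so they hold it by construction. Probes of such close copies can share signal.

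Serpina1b was at 5.42, 6.04, 8.98 and 4.85 on the paracardial arrays and at 6.23, 5.55 and 5.75 on the intra-abdominal ones. Serpina1c was at 5.28, 4.94, 8.66 and 4.32, and then at 5.87, 6.004 and 5.52. Serpina1d was at 4.40, 4.11, 6.29 and 3.25, against 4.83, 4.32 and 4.37, and Serpina1e was at 4.97, 4.99, 7.90 and 4.51, against 5.08, 5.41 and 5.10. Paracardial array 3 was the highest of the 7 arrays for each of the 4 genes, and paracardial array 4 the lowest. Liver markers were high on the same array: 6 of 9 were measured, with a median of 7.42 on paracardial array 3 and 4.22 to 4.99 on the other 6. Albumin (Alb) was at 14.4 there and at 4.77 to 8.73 elsewhere, and the fetuin gene Ahsg was at 8.96 against 4.62 to 5.84. The 4 depot differences were 0.00 to 0.48 with wide intervals (for Serpina1b -1.82 to 2.78), 2 of them turned negative after median centring, and without paracardial array 3 all 4 were negative, for Serpina1c by 0.95 (adjusted p = 0.166). The part of liver RNA in these values was not tested.

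Serpina1f and the Kazal inhibitor Spink8 were high on another single array, also noticed after the values were seen. Serpina1f was at 4.25, 4.29, 4.39 and 4.02 on the paracardial arrays and at 4.89, 8.37 and 3.93 on the intra-abdominal ones. Spink8 was at 4.27, 4.09, 4.27 and 3.91, and then at 4.08, 6.70 and 3.78. Only intra-abdominal array 2 stood above the rest, by more than 2 on the log2 scale for both genes. Of 10 listed markers of the male reproductive tract 2 were measured. Prm2, a protamine of sperm, was at 10.6 on intra-abdominal array 2 and at 4.08 to 5.42 on the other 6, while Prm1 was at 5.54 there and at 4.33 to 5.22 elsewhere. Without that array the depot difference of Serpina1f moved from -1.49 to -0.17 and that of Spink8 from -0.72 to 0.20. Whether RNA of the reproductive tract had a part in this was not tested.

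**Figure D3:**
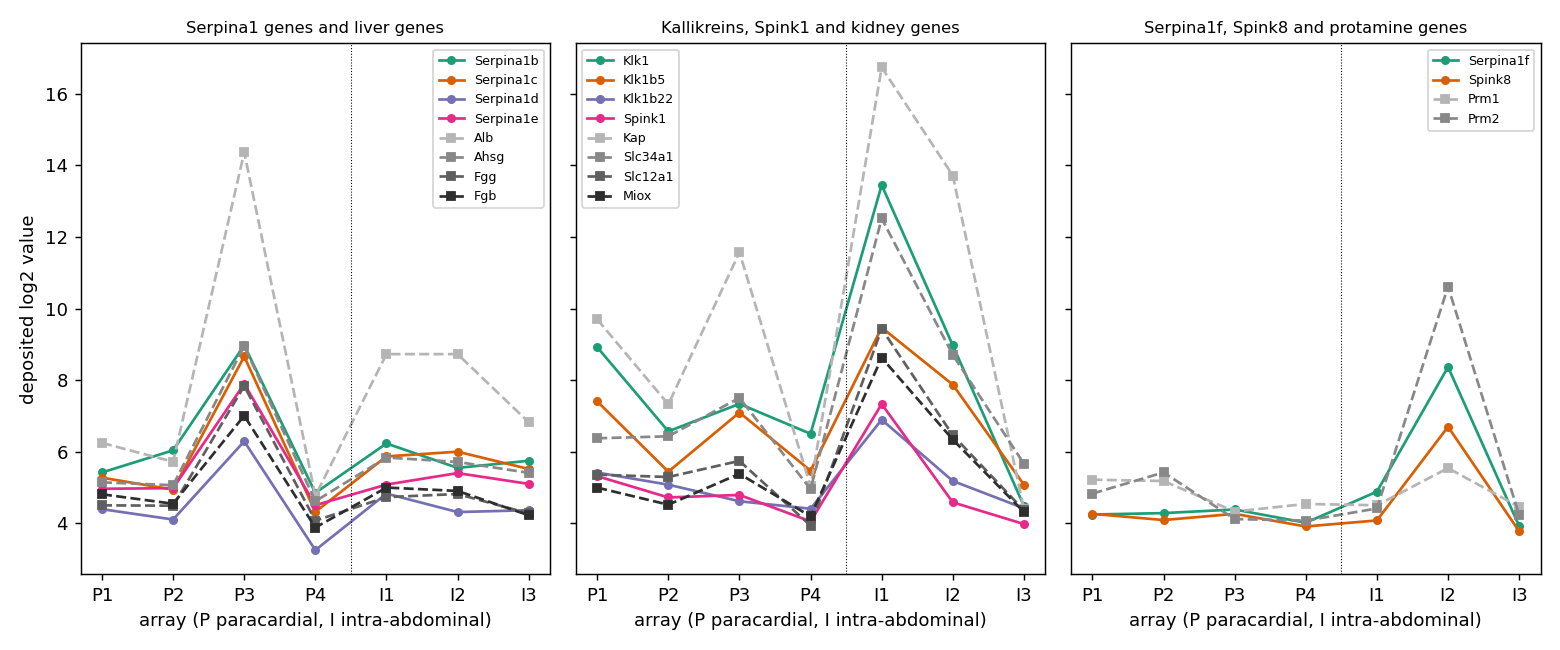
Deposited log2 values (vertical axis) of members (solid lines) and marker genes of another organ (dashed lines) on the 4 paracardial (P1 to P4) and 3 intra-abdominal (I1 to I3) arrays. Serpina1b to Serpina1e peak with liver genes on P3, Klk1, Klk1b5, Klk1b22 and Spink1 with kidney genes on I1, and Serpina1f and Spink8 with Prm2 on I2.

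None of the 13 kallikreins passed, and their median difference was -0.15 (0.13 over all genes). Klk1, the tissue kallikrein that releases kinins, was at 8.92, 6.57, 7.34 and 6.50 on the paracardial arrays and at 13.45, 8.97 and 4.49 on the intra-abdominal ones. The intra-abdominal arrays, from 4.49 to 13.45, enclosed all paracardial values. The difference of -1.64 therefore had a 95% confidence interval of -6.33 to 3.06 (adjusted p = 0.670), and it was 0.60 without intra-abdominal array 1. Klk1b5 followed a like order, at 7.41, 5.45, 7.10 and 5.47, and then at 9.47, 7.88 and 5.08.

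The other 9 Klk1b genes had all values between 3.88 and 6.90 and differences between -0.64 (Klk1b9) and 0.12 (Klk1b27). Of the 10 Klk1b genes 8 had a negative difference, as did 3666 of all 9294 genes. After median centring all 10 Klk1b genes had one. Klk1b probes may share signal, since these genes are close copies of each other. Spink1, which protects the pancreas from early trypsin activity, was at 5.32, 4.73, 4.80 and 4.06 on the paracardial arrays and at 7.33, 4.59 and 3.98 on the intra-abdominal ones. It too was highest on intra-abdominal array 1, and its difference turned from -0.58 to 0.44 without that array.

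A list of kidney markers, added after these values were seen, had its highest median on the same array. Of 14 genes 11 were measured, with a median of 8.63 on intra-abdominal array 1, 6.34 on intra-abdominal array 2, 4.55 on intra-abdominal array 3 and 4.41 to 5.39 on the paracardial arrays. Kap, an androgen-regulated kidney gene, was at 16.7 on intra-abdominal array 1 and the phosphate transporter Slc34a1 at 12.5. Kap was also at 13.7 on intra-abdominal array 2 and 11.6 on paracardial array 3. By contrast Slc22a6 hardly rose, at 5.32 on intra-abdominal array 1 and 5.27 on paracardial array 1. Of 12 exocrine pancreas markers only Cela1 was measured, at 5.75 on intra-abdominal array 1 and 5.47 to 6.90 on the others. The part of kidney or pancreas RNA was not tested. Klk8, a kallikrein of brain and skin (0.47, -0.09 to 1.02), and Klk12 (0.11, -0.45 to 0.67) did not pass.

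Cathepsins were measured for 9 genes, and none passed, at a median difference of -1.08 against 0.13 over all genes. At an unadjusted p under 0.05 there were 2, Ctsb and Ctsf, where 24.4% of all genes reached that level. Of the 9, 7 were lower in mean and 2, Ctsl and Ctsw, higher, where 3666 of all 9294 genes were lower in mean. After quantile normalization was applied again Ctsl turned, and 8 cathepsins were lower.

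Ctsl, the cathepsin that processes invariant chain in cortical thymic epithelium and degrades lysosomal cargo elsewhere, did not differ beyond the spread of its depots. It was at 14.29, 13.86, 16.13 and 16.42 on the paracardial arrays and at 14.07, 13.37 and 15.33 on the intra-abdominal ones. Paracardial arrays 3 and 4 were above all intra-abdominal arrays, and paracardial arrays 1 and 2 lay among them. The means were 15.18 ± 1.29 (SD, n = 4) and 14.25 ± 0.99 (SD, n = 3), a difference of 0.92 ± 0.79 with 95% confidence limits at -0.98 and 2.82. By limma the adjusted p was 0.542, and the exact two-sided permutation p was 0.343. The difference was 1.04 within the 5 arrays outside the array pair and 1.09 within the pair, and it was 0.04 after cyclic loess and -0.75 after repeated quantile normalization, so its direction depends on the scaling. The upstream sequence of Ctsl, at chr13:64370691-64370770 of GRCm38.p6 on the minus strand, is printed for the E-box it holds, set in capitals.
Ctsl: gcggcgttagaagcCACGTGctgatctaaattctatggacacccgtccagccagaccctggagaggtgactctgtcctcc
The motif CACGTG, which reads the same on both strands, was in 1978 of 32851 upstream windows (6.02%) and in 3 of the 54 members with a listed promoter, Ctsl, Ctsf and Cstf1.

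Ctsb, a lysosomal cysteine protease abundant in many tissues, was at 12.49, 11.91, 14.86 and 16.91 on the paracardial arrays and at 17.22, 17.51 and 18.65 on the intra-abdominal ones. The depots did not overlap, though paracardial array 4 (16.91) came close to intra-abdominal array 1 (17.22). The difference was -3.75 ± 1.23 (95% confidence interval -6.68 to -0.82, adjusted p = 0.116). It was -4.71 without paracardial array 4, where it passed (adjusted p = 0.043), -3.53 with the array pair as a block, where it passed too (0.047), and -1.91 without paracardial arrays 1 and 2. Within the array pair it was -1.74, and in the other 5 arrays -4.28.

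Ctsf was at 5.29, 5.26, 5.44 and 5.81 against 6.15, 6.80 and 7.92, again without overlap, and differed by -1.51 ± 0.42 (adjusted p = 0.078). It passed after repeated quantile normalization (-1.66, adjusted p = 0.044), median centring (-1.66, 0.048) and cyclic loess (-1.60, 0.041), with the array pair as a block (-1.43, 0.023) and without intra-abdominal array 1 (-1.91, 0.044). Ctsc, the dipeptidyl peptidase that activates granzymes, was at 9.48, 9.43, 10.45 and 10.64 against 10.55, 10.85 and 11.83. Its paracardial array 4 overlapped intra-abdominal array 1, and the difference of -1.08 had an adjusted p of 0.205. Ctsc passed after repeated quantile normalization (-1.95, adjusted p = 0.044) and cyclic loess (-1.75, 0.013), and its difference fell to -0.70 without intra-abdominal array 3. Ctsh, an aminopeptidase, differed by -0.84 and Ctsz, a carboxypeptidase, by -1.15, each with overlapping depots. Without intra-abdominal array 3 these fell to -0.32 and -0.09, and after repeated quantile normalization Ctsz was at -2.14 (adjusted p = 0.271).

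Ctss, which serves antigen presentation in macrophages and B cells, was at 9.29, 9.41, 10.68 and 12.13 on the paracardial arrays and 9.14, 8.57 and 14.44 on the intra-abdominal ones. The intra-abdominal arrays held both the lowest values and the highest one. The difference was 0.93 within the 5 arrays outside the array pair and -2.31 within the pair, so the pooled -0.34 (-3.98 to 3.29) describes neither. Ctsk, the collagen-cleaving cathepsin of osteoclasts, was at 4.11 to 4.55 on the paracardial arrays and at 4.603, 4.74 and 7.25 on the intra-abdominal ones, where array 3 alone was high. The depots did not overlap for Ctsk, by a small gap, and its difference of -1.19 (adjusted p = 0.330) fell to -0.33 without that array.

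Macrophage markers were high on that array too. Of 12 listed 8 were measured and none passed, with medians of 6.38 to 8.36 on the paracardial arrays, 7.87 and 8.28 on intra-abdominal arrays 1 and 2 and 10.5 on intra-abdominal array 3. Their part in the cathepsin values was not tested. Of 31 other lysosomal genes 17 were measured and 3 were lower in paracardial fat, with a median difference of -1.35. They were the peptidase Tpp1 (-4.13 ± 0.86, adjusted p = 0.033), the sulfatase Arsb (-2.01 ± 0.33, 0.019) and the membrane protein Cd63 (-1.99 ± 0.38, 0.026).

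**Figure D4:**
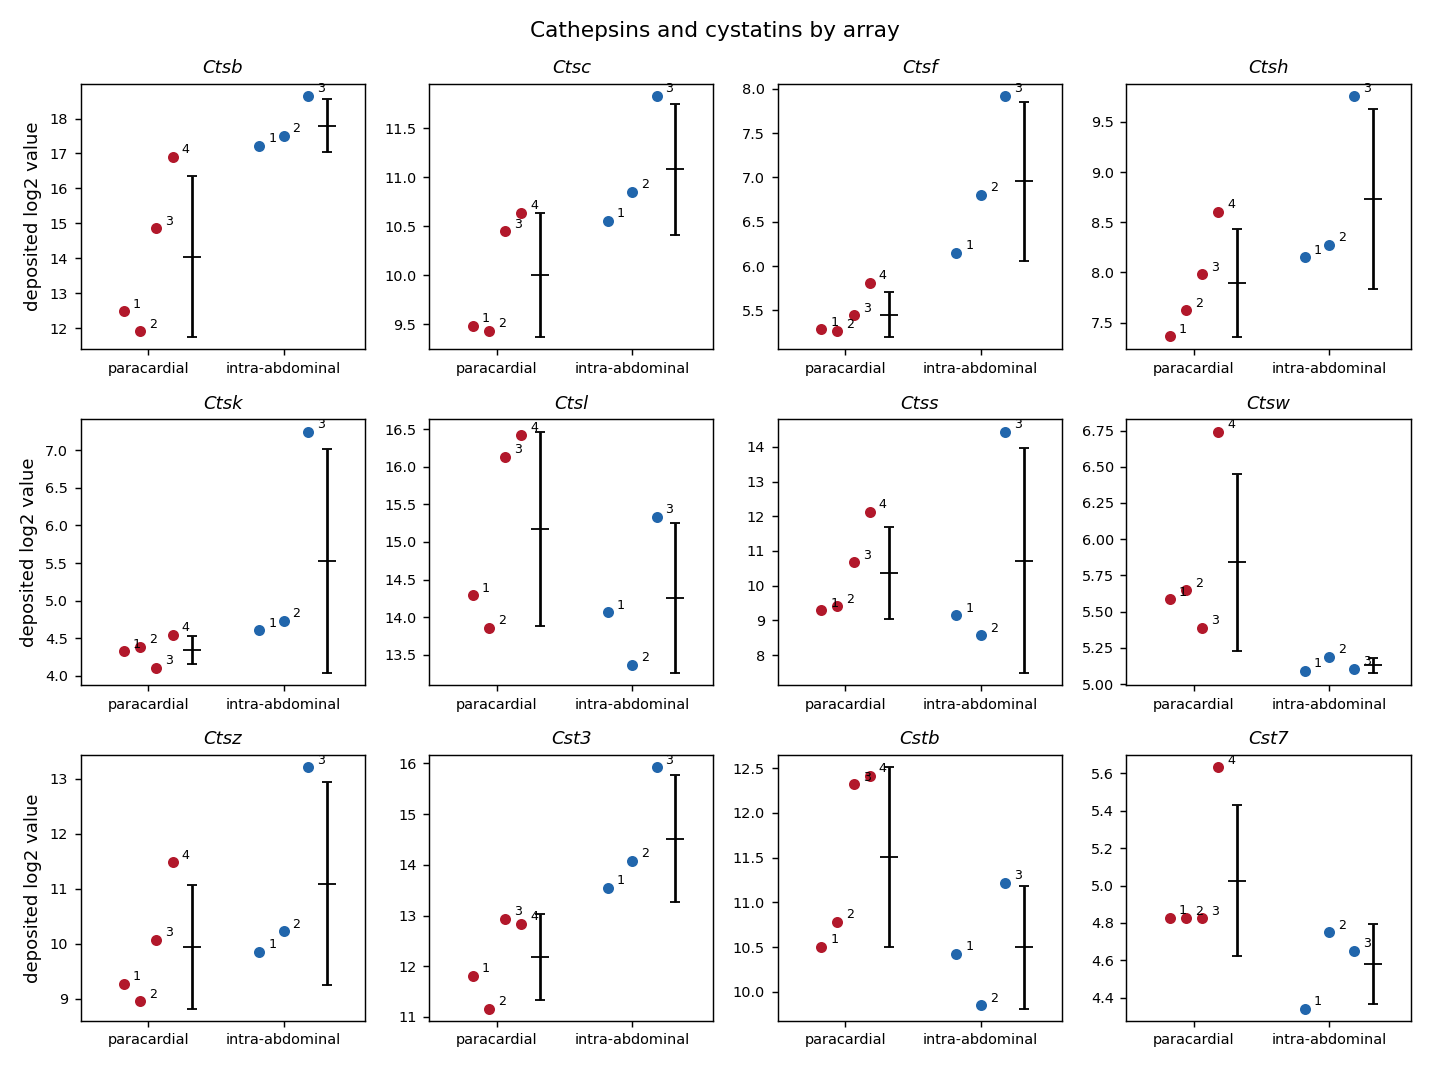
Deposited log2 value (vertical axis, scaled per panel) of the 9 cathepsins and 3 cystatins on each array, numbered by replicate, with mean and SD beside each depot (n = 4 and n = 3). Ctsb, Ctsf, Cst3 and, by a small gap (4.55 to 4.60), Ctsk are higher on every intra-abdominal array than on any paracardial one. For Ctss intra-abdominal array 3 (14.44) stands far above arrays 1 and 2 of its depot.

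Cystatins gave no call among 5 genes, with 1 at an unadjusted p under 0.05. Cst3, cystatin C, the secreted inhibitor of cathepsins, was at 11.81, 11.16, 12.94 and 12.83 on the paracardial arrays and at 13.55, 14.08 and 15.92 on the intra-abdominal ones. The depots did not overlap, and the difference was -2.33 ± 0.70 (95% confidence interval -3.99 to -0.67, adjusted p = 0.092). It passed after cyclic loess (-3.12, adjusted p = 0.035) and with the array pair as a block (-2.21, 0.038), and repeated quantile normalization gave -4.01 (0.085).

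Cstb, the intracellular stefin B, leaned the other way, at 10.50, 10.78, 12.32 and 12.42 against 10.42, 9.85 and 11.22, with overlap and a difference of 1.01 ± 0.61 (adjusted p = 0.380). Paracardial arrays 3 and 4 were high for Cstb, as they were for Ctsl. The difference of Cstb shrank to 0.15 after repeated quantile normalization and 0.25 after cyclic loess, so its size depends on the scaling. Cst7, cystatin F of lymphoid and myeloid cells, was at 4.82 to 4.83 on paracardial arrays 1 to 3, 5.63 on array 4 and 4.34 to 4.75 on the intra-abdominal arrays. Its difference of 0.45 fell to 0.24 without paracardial array 4. Stfa2 and Cstdc3, of the stefin A cluster, differed by 0.11 and -0.18, and the sign of Stfa2 turned after median centring.

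Gzma, granzyme A, a serine protease of the granules of cytotoxic T and NK cells, was higher in paracardial fat. It was at 8.50, 9.29, 9.88 and 11.17 on the paracardial arrays and 6.32, 6.11 and 6.38 on the intra-abdominal ones. The lowest paracardial array was above all intra-abdominal arrays, which lay close together. The means were 9.71 ± 1.13 (SD, n = 4) and 6.27 ± 0.14 (SD, n = 3), and the difference was 3.44 ± 0.60 (95% confidence interval 2.01 to 4.87, limma adjusted p = 0.020). It was 3.01 within the 5 arrays outside the array pair and 4.79 within the pair. It passed in 3 of 7 fits that left out an array, with adjusted p = 0.053 without paracardial array 2, 0.059 without paracardial array 3, 0.051 without intra-abdominal array 1 and 0.088 without intra-abdominal array 2.

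Markers of T and NK cells were in part higher in paracardial fat too. Of 12 listed 5 were measured and 2 were higher, Cd3d (4.09 ± 0.98, adjusted p = 0.0497) and Lat (4.03 ± 0.90, 0.041), while the granule protein Nkg7 differed by 0.41 ± 0.42 (0.602). Cd8a and Cd8b1 differed by 6.32 and 5.67 and did not pass (limma adjusted p 0.059 and 0.086). On intra-abdominal arrays 1 to 3 Cd8a was at 11.9, 6.87 and 5.55 and Cd8b1 at 15.98, 10.5 and 9.06. On the same arrays Gzma was at 6.32, 6.11 and 6.38 and Nkg7 at 5.75, 5.71 and 5.75. The part of these markers in the Gzma call was not tested. Ctsw, a cathepsin of the same cell types, was at 5.59, 5.65, 5.39 and 6.74 against 5.09, 5.19 and 5.11. Its depots did not overlap, and its difference of 0.71 ± 0.35 had an adjusted p of 0.276 and fell to 0.41 without paracardial array 4.

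The mast cell chymases did not pass. Mcpt4 was at 4.94, 5.05, 5.997 and 6.502 on the paracardial arrays and at 6.12, 5.17 and 6.496 on the intra-abdominal ones, a difference of -0.31 (-1.51 to 0.90). Cma1 differed by 0.14 (-0.35 to 0.62), with a sign that turned after median centring. Of 10 mast cell markers 2 were measured and neither passed, the carboxypeptidase Cpa3 and the tryptase Tpsb2.

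None of the 4 Prss genes passed, with 1 at an unadjusted p under 0.05. Prss23, a secreted serine protease, was at 5.49, 5.33, 5.56 and 5.52 against 5.71, 6.82 and 6.22, without overlap, and differed by -0.77 ± 0.28 (adjusted p = 0.147), or by -0.49 without intra-abdominal array 2. Prss57, stored in neutrophil granules, was at 5.33 to 6.05 against 4.87 to 5.33 and differed by 0.44 (-0.15 to 1.03). Prss8, known as prostasin, differed by -0.22 (-1.05 to 0.62) and Prss35 by 0.00 (-0.58 to 0.58). Tmprss2, a membrane protease of epithelia, differed by -0.02 (-0.75 to 0.70). Neutrophil markers gave no call among 5 measured of 10 listed. Cstf1 and Cstf2t, which only share a prefix, differed by 0.43 and 0.58 with adjusted p of 0.557 and 0.417.

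Proteases outside the prefixes were counted in lists for comparison. Of 18 metalloproteinases and their inhibitors 3 were measured and none passed, and of 18 caspases and calpains 6 were measured and none passed. Of 32 proprotein convertases and other peptidases 11 were measured and 2 were lower, the angiotensin-converting enzyme Ace (-3.98 ± 0.77, adjusted p = 0.027) and the secreted serine protease Htra3 (-4.52 ± 0.74, 0.018). The median difference of these 11 was -1.39.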

How the data were processed

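The authors deposited log2 values, 1 for each probe and array; the submitters' processing notes name RMA and Affymetrix Expression Console. On each array 0.71 to 3.23% of probes lie within 0.1 of the highest value, none of them a member, and how the values were scaled and centred is unknown. No version, background step or genome build is given in these sources. Scanner files were not used here, so signal over background is unknown, and precision is limited by how many arrays there are. Of 11949 probes 9352 had 1 gene symbol, 522 several and 2075 none. Symbols were updated through Entrez identifiers, which gave 9294 genes. Among symbols with the prefixes, 3 probes with several symbols and 2 with -ps were left out.

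Depots were compared over 7 arrays by limma 3.58.1 under R 4.3.3, using lmFit and then eBayes with no trend and no covariate (residual degrees of freedom 5, prior 1.68). Benjamini-Hochberg adjustment ran over all genes, and 0.05 was the threshold. The fit was tested on simulated data, where it recovered 53% of 100 changes of 2 on the log2 scale and 74% of 100 changes of 4. It made 4 false calls there. Noise in the simulation was independent between genes and no other gene was changed, so these rates may not hold for the data. A member that did not pass may therefore still differ. The genes named by rule (22) are Serpina3n, Ctsl, members past the threshold and, per family, the 2 with the largest difference and the 2 with the highest mean; other members, and list genes beyond the 3 with the largest called difference, were picked for naming with values in view. The members and lists were chosen with earlier results of these data known. Alternatives were scaling, filters on dim genes, blocks, probe averaging and arrays left out. Tables and plots used Python 3.11.15 with pandas 2.3.3; exact permutation tests used scipy 1.17.1.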

Additional observations from a re-analysis of the deposited data

Results flagged for a closer look

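Among the 4 paracardial arrays, 8 members had 1 array far from the others by Dixon's test at the 95% level, which chance gives for about 1 in 20 groups, and 63 groups were looked at. Array 3 was high for Serpina1e (7.90) and Prss35 (4.97) and low for Serpinb5 (5.75). Array 4 was high for Cst7 (5.63) and Cstf1 (7.99) and low for Serpinf2 (4.61). Array 1 was high for Klk1b8 (4.82) and Serpinb3d (5.79).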

How the results depend on the processing

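Serpina3n kept its direction under all 18 alternatives (-9.38 to -7.78, adjusted p 0.0022 to 0.090) and stayed past the threshold in 16. It missed it with the replicate number as a block (-9.04, limma adjusted p = 0.052) and without paracardial arrays 1 and 2 (-7.78). Same-numbered arrays correlated at 0.048, 0.047 and -0.50 in their deviations from the depot means. With so few arrays this cannot tell whether the numbers pair the samples. Paracardial array 4 has no partner by number and adds nothing to the block fit. Leaving out each array in turn gave -9.34 to -7.82 for Serpina3n. Ctsl passed under none of 18 alternatives (-0.75 to 2.02).

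The replicate block called 0 genes by limma (2134 at an unadjusted p under 0.05), with 0 members higher and 0 lower (3 and 7 unadjusted). Without paracardial arrays 1 and 2 it was 1 gene, with 0 members higher and 0 lower (6 and 2 unadjusted). With the array pair as a block 1654 genes and 5 lower members were called, against 851 and 2. The lower members added were Ctsb, Ctsf and Cst3 under that block. Repeated quantile normalization gave 4 lower members, with Ctsf and Ctsc added, and cyclic loess 5, with Cst3 as well. The 5 arrays outside the pair gave 1 lower member, and dropping the dimmest 50% of genes left 1 higher member called, since Serpinb3a and Serpinb5 were then not among the genes tested. Leaving out each array in turn gave 185 (without intra-abdominal array 2) to 833 genes, 0 to 3 higher members (0 without intra-abdominal array 2, with 3 unadjusted) and 1 to 4 lower ones. The split of calls was 581 higher and 270 lower as deposited, 436 and 474 after repeated quantile normalization and 453 and 571 after cyclic loess.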

Other observations

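For 14 of the 63 members, 2 or more of the 7 arrays held exactly the same deposited value, as for 1769 of 9294 genes (19.0%). Cstf1 was at 6.52 on all 3 intra-abdominal arrays, and Serpina3f was at 4.99 on 4 arrays, so the SD of the intra-abdominal arrays was 0 for both genes.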
